A study of Homo sapiens with 12 samples.

Results

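The comparison described here is that of p300-depleted with si-control HEK293T cells, both stimulated with Wnt3A, and it uses 2 of the 12 arrays of the series, chosen by their titles. HEK293T is a transformed human embryonic kidney line in which the Wnt pathway is intact and can be switched on by added ligand. The cells of both arrays were transfected with an siRNA pool at 15 nM for 72 h and given Wnt3A for 9 h, and they differed in the pool, which was directed at the p300 transcript (EP300) or at no transcript (si-control). The other 4 HEK293T arrays hold si-control RNA in control medium (9 h) and RNA depleted of MLLT10/AF10, DOT1L or BRG1 (SMARCA4) after Wnt3A, and the remaining arrays hold RNA of Ls174T colorectal cancer cells. On each HEK293T array the sample was labeled with Cy3 and universal human reference RNA, a mixture from several cell lines, with Cy5. A level is the log2 ratio of sample to reference, and a change is the level on the p300 knockdown array minus the level on the si-control array. Of the 43376 features that are not control spots, 27777 were well-measured on both arrays, with a signal in either channel of more than 2-fold the local background and no outlier mark.

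p300 and its close relative CBP (CREBBP) are histone acetyltransferases that do not read DNA themselves but are brought to promoters and enhancers by transcription factors, among them CREB, SMAD, AP-1, HIF and p53 proteins. In the Wnt pathway the ligand stabilizes β-catenin, which enters the nucleus, binds TCF/LEF factors and recruits coactivators, p300 and CBP included. The comparison asks which transcripts of Wnt-stimulated cells are higher or lower when p300 is depleted.

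Each condition is 1 array from 1 culture, so the differences are not checked by replicates and p-values are not given. The error printed after ± is the error model of the scanner program, combined over both arrays, and leaves out the spread between cultures. The p300 array shared a slide with the BRG1 array and with Ls174T arrays, and the si-control array was alone on its slide, so slide and knockdown cannot be told apart in this comparison. The arrays of HEK293T cells were alike in the program's median error, 0.219 to 0.222 on the log2 scale, and the Cy3 signal over local background was 2.72 at the median on the p300 array and 3.15 on the si-control array. Of the embryonic kidney and neural markers, 9 were measured, PAX8 was lower (-1.65), NEFL was higher (0.82, mean of its probes), and the other 7, LHX1 (0.15) and GATA3 (0.04) among them, were within 1.5-fold. Of the colon markers 4 were measured, and TFF3 and VIL1 were lower (-1.41 and -1.25, means of their probes), VIL1 with a sample signal not well above background. Of the markers of blood, fibroblasts and liver 6 were measured, and PTPRC (-1.66) and COL3A1 (-0.59) were lower, both dim. The part of such markers in the results was not tested, and in bulk RNA fewer cells of a type and less RNA per cell cannot be told apart.

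Motifs of factors that recruit p300 were sought in the promoters of the genes, 250 bases before to 50 bases after the start in RefSeq (GRCh38.p14), on both strands. A promoter was matched for 10246 of the 12671 genes whose probes were well above background in both channels on both arrays. The cAMP response element TGACGTCA, bound by CREB, stood in 3.23% of these promoters and in 8 of 448 promoters (1.79%) of those that were lower by more than 1.5-fold. Of the 12671 genes 623 (4.92%) were lower and 364 (2.87%) were higher by this threshold. The TCF motif CTTTGAT stood in 1.46% and 1.34%, and the AP-1 motif TGACTCA in 2.92% and 4.24%. Over all 35116 RefSeq promoters the shares were 1.85%, 2.62% and 4.95%. Among 77 promoters of genes that were lower on the p300 array than on each of the other 5 HEK293T arrays (described below), the cAMP response element was found in that of PDE4A, a phosphodiesterase that breaks down cAMP, and the TCF motif in those of SEMA6D and CMTM6. The promoters of PDE4A (chr19:10416523-10416822, plus strand, the motif beginning 3 bases before the start and spanning it) and CMTM6 (chr3:32502803-32503102, minus strand, the motif beginning 138 bases before the start and on the opposite strand) are shown with the motif in capitals, since these genes carry the pattern described below.
PDE4A: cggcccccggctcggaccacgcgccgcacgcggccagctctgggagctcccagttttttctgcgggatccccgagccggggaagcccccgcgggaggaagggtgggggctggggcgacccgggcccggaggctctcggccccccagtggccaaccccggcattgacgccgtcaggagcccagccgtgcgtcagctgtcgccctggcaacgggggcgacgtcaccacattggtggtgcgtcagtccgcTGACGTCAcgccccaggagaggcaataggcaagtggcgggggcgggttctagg
CMTM6: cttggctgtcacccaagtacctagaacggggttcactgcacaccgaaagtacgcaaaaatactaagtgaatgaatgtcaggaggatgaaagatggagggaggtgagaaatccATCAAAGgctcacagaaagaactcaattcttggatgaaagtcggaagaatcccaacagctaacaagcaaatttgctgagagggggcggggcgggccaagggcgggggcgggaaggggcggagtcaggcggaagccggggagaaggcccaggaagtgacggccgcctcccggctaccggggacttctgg

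The EP300 transcript was lower on the p300 array than on every other HEK293T array. At the first probe the Cy3 signal was 65.6 on the p300 array, against 262 on the si-control array, 520 in control medium, 313 after si-MLLT10, 354 after si-DOT1L and 396 after si-BRG1. The corresponding levels were -1.87 after si-p300 and 0.25 to 0.86 on the others, and the change was -2.35 ± 0.35, or 5.08-fold. A second EP300 probe is printed in 10 spots, and its Cy3 signal was 119.1 to 170.8 over the spots of the si-control array and 7.052 to 37.34 over those of the p300 array. Only 1 of the 10 knockdown spots was well above background, so the depletion at this probe was at least 3.649-fold. CREBBP, the relative that the siRNA was not aimed at, had a change of -0.05 ± 0.09 at a probe with 10 spots and of 0.12 ± 0.29 at a second, both within the 1.5-fold threshold. A further CREBBP probe was not well-measured on both arrays.

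After p300 depletion more features were lower than higher. Of the 27777 features, 2293 (8.26%) were lower by more than 1.5-fold and 1110 (4.0%) were higher, so that 67.4% of those past the threshold were lower. By gene, as the mean of its probes, 964 of 13334 were lower (7.23%) and 447 were higher (3.35%). Part of this asymmetry lay in dim features, since 832 of the 2293 lower features had a sample signal not well above background on the p300 array. Among the 26166 features well above background in both channels on both arrays, 1451 (5.55%) were lower and 933 (3.57%) were higher, and 60.9% of these were lower. In the dimmest of 4 equal groups by si-control sample signal 22.9% of features were lower and 9.09% higher, in the next group 4.82% were lower and 5.07% higher, then 3.28% and 1.5%, and in the brightest group 2.0% were lower and 0.331% higher.

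Probes printed in 10 spots give the spread within an array. Of 238 such probes with at least 5 well-measured spots, the median SD between spots was 0.0513 on the log2 scale, 31 were lower and 3 were higher. Of the 215 with every usable spot well above background in both channels, 14 were lower and 3 higher. The tissue plasminogen activator PLAT was lower by a change of -1.27 (SD 0.03 over 10 spots), and the urokinase PLAU by -1.05 (SD 0.07 over 10 spots). TGFB1, the TGF-β ligand, changed by -0.80, the heme-degrading enzyme HMOX1 by -0.74 and the apoptosis inhibitor BCL2 by -0.77. JUN, a subunit of AP-1, was among the 3 that were higher, with a change of 0.81 (SD 0.03 over 9 spots). These SDs cover printing and hybridization on 1 pair of arrays. The genes named here are a selection from these probes, and none was among those apart from all other HEK293T arrays, described below.

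Each ratio change was also set beside the changes of its sample and reference signals. Over features well above background these signal changes had a correlation of 0.749. Their SD was 0.527 in the sample and 0.464 in the reference, beside 0.356 for the ratio. A shift shared by both channels of a spot cannot be told apart from a change in a single channel. The values thus describe the signals and not the source of a change. Among the lower features well above background, the Cy3 sample signal fell past 1.5-fold in 1231 of 1451 (84.8%), and the Cy5 reference signal rose past 1.5-fold in 10 (0.689%). The median signal change was -0.893 in the sample and -0.0557 in the reference. Among the 933 higher features, the sample signal rose past 1.5-fold in 338 (36.2%), and the reference signal, which comes from the same RNA on every array, fell past 1.5-fold in 373 (40.0%). Lower ratios thus went mostly with a lower sample signal, and higher ratios with shifts of both signals in near equal measure.

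**Figure D1:**
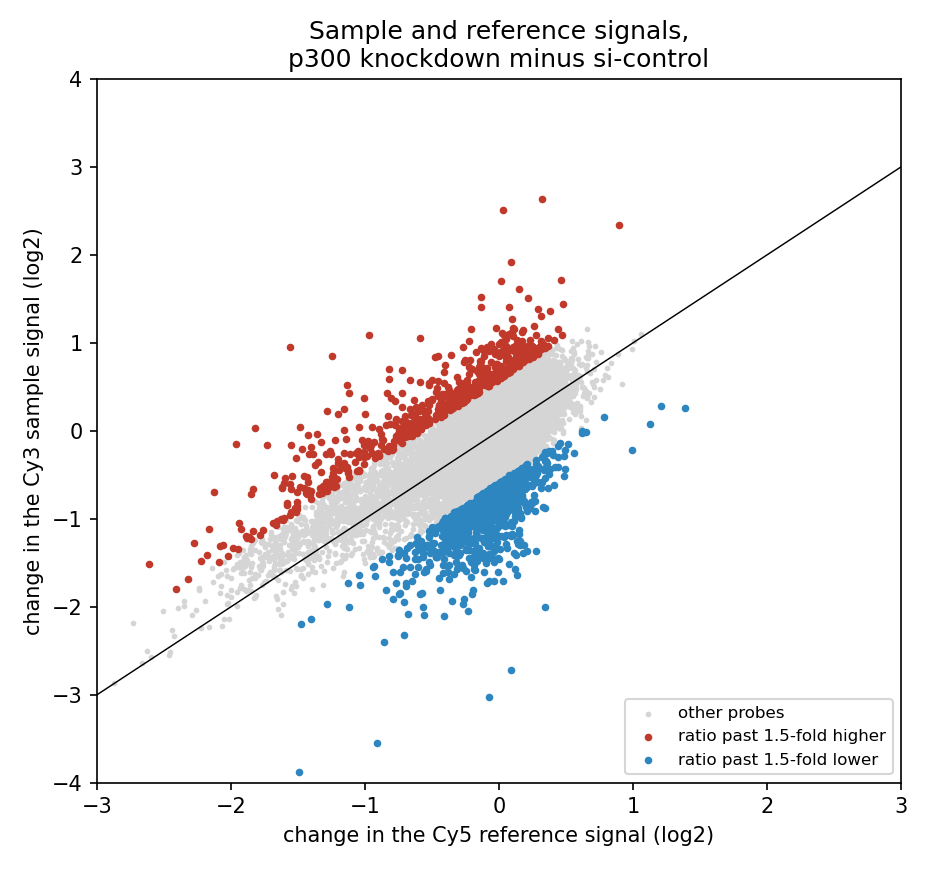
Change of the Cy3 sample signal (vertical, log2) against that of the Cy5 reference signal (horizontal, log2), p300 knockdown minus si-control, for probes well above background; the diagonal marks an unchanged ratio. Lower ratios (blue) lie near 0 on the horizontal axis, whereas many higher ratios (red) lie to its left, where the reference signal was lower.

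The largest increases show this difference gene by gene. FUT2, a fucosyltransferase, had a change of 2.52 ± 0.42, with signal changes of 0.96 in the sample and -1.56 in the reference. KIF19, a kinesin, and OTUB2, a deubiquitinase, had changes of 1.81 and 1.85 with sample signal changes of only -0.15 and 0.03. The kinase BRSK2 (1.57) had a sample signal change of -0.16. In contrast, the increase of the sialic acid receptor CD33 (2.48 ± 0.52) lay in the sample signal (2.51), as did that of the lipolysis inhibitor G0S2 (1.69 ± 0.49, sample signal 1.71). UNC13A, which primes synaptic vesicles, increased in the sample signal by 2.64, and its level was 1.63 on the p300 array, 2.23 after si-MLLT10 and -0.42 to -1.54 on the others. MAK (2.06), TSGA10 (2.10), B3GAT2 (1.66), CHGB (1.65) and PPP1R1C (1.66) complete the 12 largest increases, with reference signal changes of -0.97, -1.25, -1.13, -0.59 and -0.13.

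Of the 12 largest decreases among probes well above background, counted by gene, EP300 was the fourth, and some rested on a high si-control value. C1QTNF5, a secreted protein of the C1q family, had the largest, -2.95 ± 0.39. Its Cy3 signal was 1048 on the si-control Wnt3A array and 104 to 169 on the other 5 arrays, 128 after si-p300 among them. Against the mean of the MLLT10 and DOT1L arrays its change was 0.14, and against the BRG1 array 0.31. The actin-like gene ACTL8 (-2.81 ± 0.35) had a signal of 758 on the si-control array and 61.6 to 148 elsewhere. In both genes the si-control array stood apart and the p300 array did not. The linker histone pseudogene H1-9P (-1.82), the serpin SERPINB2 (-1.69) and the GABA receptor subunit GABRE (-1.66) were lower on the p300 than on the si-control array but not lower than on the BRG1 array, with changes against BRG1 of 0.52, 0.41 and 0.89.

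To separate genes that differed on the p300 array from those that differed on the si-control array, each of the 6 HEK293T arrays was set against the other 5, a criterion added after the values were seen. Of 26792 features well-measured on all 6, 314 (1.17%) were lower on the p300 array than on each of the others by more than 1.5-fold, and 71 (0.265%) were higher. The si-control Wnt3A array was above all the others at 357 features and below at 66, and the BRG1 array was above at 642 and below at 899. The control medium, MLLT10 and DOT1L arrays each had 19 to 70 features in either direction. Of the 2151 lower features well-measured on all 6 arrays, 898 (41.7%) lay within the range of the 4 arrays other than si-control Wnt3A and p300, and at 357 (16.6%) all 4 were also more than 1.5-fold below si-control.

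**Figure D2:**
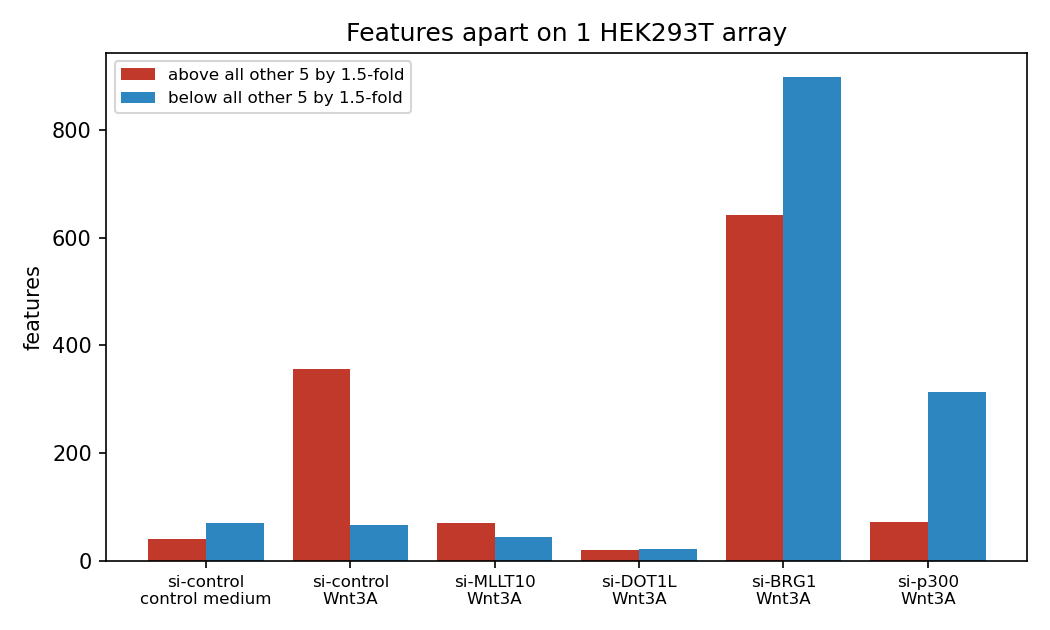
Number of features that were above (red) or below (blue) all other 5 HEK293T arrays by more than 1.5-fold, for each array. The p300 array was below the others at 314 features and above at 71, whereas the si-control Wnt3A array was above them at 357 and below at 66.

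Restricted to probes with a gene symbol that were well above background in both channels of the p300 and si-control arrays, 110 probes of 99 genes were lower on the p300 array than on the other 5 and 33 probes of 32 genes were higher. The choice of these probes used the ratio, and within it the sample signal carried most of the difference. Of the 110 lower probes, the sample signal fell past 1.5-fold from si-control in 98, and the median reference signal change was 0.0353. In 8 genes with at least 2 probes every probe was lower than on the other 5 arrays, namely CMTM6, COX20, EFNA1, EIF4EBP2, FBXO33, HMGN4, KRTAP19-1 and SARNP. These genes and those of the following paragraphs that are named for this pattern alone were chosen after their values were seen.

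CMTM6, a membrane protein that stabilizes PD-L1 at the cell surface, had levels of 0.69 in control medium, 0.71 after si-control, 0.82 after si-MLLT10, 0.79 after si-DOT1L and 0.89 after si-BRG1, and of -0.20 after si-p300. The p300 array was the only low one, and the change was -0.91 ± 0.30 at this probe and -0.89 ± 0.29 at the second. EIF4EBP2, which holds back cap-dependent translation, had levels of 0.19 to 0.60 on the other 5 arrays and -0.98 on the p300 array at 1 of its 3 probes. Its changes were -0.79, -1.37 and -1.06, so all 3 probes were lower. EFNA1, a ligand of Eph receptors, had levels of -2.57 after si-control, -2.58 in control medium, -2.66 after si-MLLT10, -2.59 after si-DOT1L, -2.66 after si-BRG1 and -3.85 after si-p300. The other 5 values lay within a narrow range, and the changes of its probes were -1.28 ± 0.52 and -1.10 ± 0.40.

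HMGN4, a nucleosome-binding protein, had a Cy3 signal of 3734 on the p300 array and of 6558 to 9323 on the others, with changes of -0.99 and -0.91 at its probes. SARNP, which takes part in mRNA export, had changes of -0.76 and -0.68, COX20, an assembly factor of cytochrome c oxidase, of -1.06 and -1.01, and the F-box protein FBXO33 of -0.77 and -0.69. The errors of these probes were 0.29 to 0.34. The sample signal of FBXO33 changed by -0.28 and -0.52 and its reference signal by 0.48 and 0.16, each within 1.5-fold. KRTAP19-1, a keratin-associated protein of hair, had levels of 3.86 to 4.29 on the other 5 arrays and 1.55 on the p300 array (-2.64 ± 0.51), and its second probe changed by -2.39 ± 0.49. The reference signal of KRTAP19-1 changed by -0.91 and -1.49 at these probes, and its sample signal by -3.55 and -3.88.

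Among single probes with this pattern were secreted and cell-surface proteins and regulators. The axon guidance ligand SEMA3C had levels of -1.01 to -2.01 on the other 5 arrays and -3.37 on the p300 array, a change of -1.64 ± 0.46. PRRT2, a synaptic membrane protein, had levels of -1.04 to -1.69 and -3.24, a change of -1.77 ± 0.44. The membrane protein TMEM47 (-1.57 ± 0.31), the orphan receptor GPR162 (-1.69 ± 0.45) and APOLD1 (-1.63 ± 0.44) were lower likewise. So were the kidney transcription factor PAX8 (-1.65 ± 0.52), the HOX gene HOXB5 (-1.26 ± 0.31), the netrin receptor UNC5B (-1.17 ± 0.31), PDE4A (-0.93 ± 0.32), whose promoter is shown above, and the cyclin CCND2 at 1 of 3 probes (-0.75 ± 0.32, the others -0.11 and 0.49). The growth arrest gene GADD45A, a p53 target, had levels of 0.11 to 0.81 on the other 5 arrays and -0.71 on the p300 array (-0.96 ± 0.30). CREB1, which encodes the factor CBP is named for, had levels of 1.11 to 1.69 on the others and 0.52 on the p300 array, and its change of -0.60 ± 0.31 lay just past the threshold, whereas its second probe had 0.09 ± 0.34.

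CD33 was the one gene with at least 2 probes at which every probe was above all other 5 arrays. Its Cy3 signal was 78.0 in control medium, 86.5 after si-control, 95.7 after si-MLLT10, 143 after si-DOT1L, 117 after si-BRG1 and 493 after si-p300, and the second probe changed by 1.83 ± 0.46. G0S2 had levels of -2.05 on the p300 array and -2.68 after si-DOT1L, the nearest of the others. The smooth muscle actin ACTA2 (1.25 ± 0.30), the interferon-induced nuclear body protein SP110 (1.02 ± 0.36), the integrin activator FERMT1 (1.20 ± 0.36) and the sulfate transporter SLC26A1 (1.47 ± 0.36) were also above all 5. RUNX1 had 1 probe below the others (-1.39 ± 0.57) and 1 above (0.71 ± 0.55), so its probes disagree, and which transcripts they measure was not examined.

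**Figure D3:**
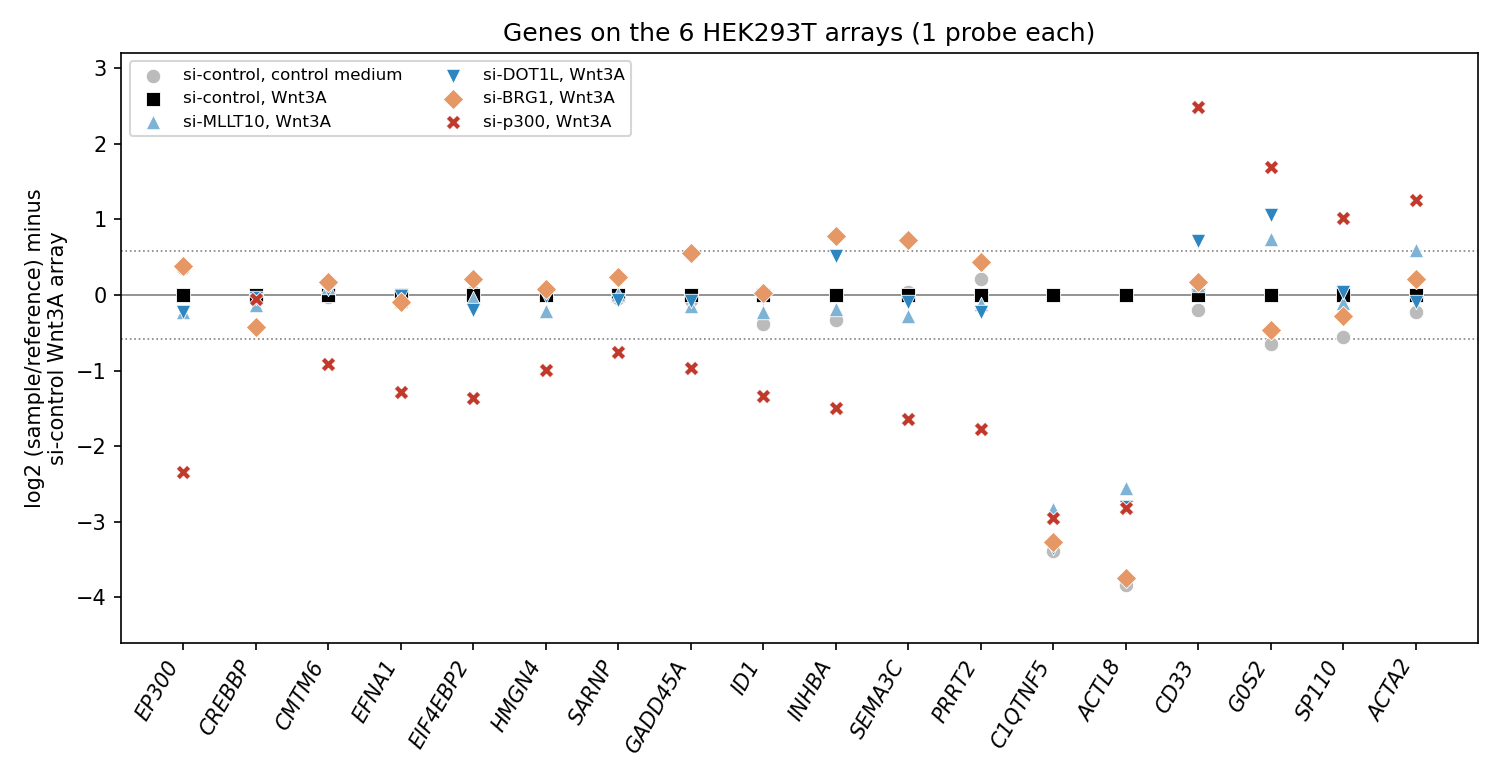
Level of 18 genes on the 6 HEK293T arrays (1 probe each), as log2 sample over reference minus the si-control Wnt3A array; dotted lines mark 1.5-fold and each symbol is 1 array. CMTM6 to PRRT2 are low and CD33 to ACTA2 high on the p300 array, whereas C1QTNF5 and ACTL8 are high on the si-control Wnt3A array alone.

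Some genes had a sample signal well above background on 1 of the arrays only, so that their changes are bounds, given here as the lowest of the bound, the ratio and the sample signal fold. NSUN7, an RNA methyltransferase family member, was at least 11.01-fold higher after si-p300, with a Cy3 signal of 187 against 6.77 after si-control. CASP1, the inflammatory caspase, was at least 6.12-fold higher, GLTPD2 3.75-fold, the amidase FAAH2 3.03-fold and the nuclear envelope protein SYNE1 2.13-fold. For GLTPD2 the si-control array was the low one, since its Cy3 signal was 91.1 after si-p300, 107 in control medium and 23.4 after si-control. CCL15, a chemokine, was at least 3.13-fold lower, DEFB1, a defensin, 3.78-fold, HSH2D 4.99-fold, IRAG2 4.65-fold and PON3 4.26-fold. The si-control array was the high one for IRAG2, with a Cy3 signal of 134 against 29.6 to 49.5 on the 4 arrays other than p300, and PON3 had 20.2 after si-p300 and 19.0 after si-BRG1. It was also above these 4 arrays for HSH2D (177 against 48.4 to 92.2), DEFB1 (158 against 31.8 to 58.6) and CCL15 (184 against 49.2 to 83.3). The signals after si-p300 were 29.0, 15.2 and 11.1, below these ranges. With normexp background correction the changes of CCL15 (0.48), DEFB1 (0.23) and CASP1 (-0.095) had the opposite sign.

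Histone acetyltransferases and p300-binding factors were next compared, by gene as the mean of its probes. Over all 13334 genes 7.23% were lower and 3.35% were higher, and the count of each list stands beside these shares. Of 17 acetyltransferase genes measured, EP300 and CLOCK, a circadian factor with acetyltransferase activity (-0.82 ± 0.30), were lower, none was higher, and the median change was 0.04. CLOCK was lower than on all other HEK293T arrays. At 1 probe KAT2B, which encodes PCAF, changed by -0.60 ± 0.29. Of 24 genes for factors and cofactors that bind p300, 4 were lower and none was higher: SMAD3, which carries TGF-β signals (-0.68 ± 0.12, 8 spots), CITED2, which competes with HIF for p300 (-0.64 ± 0.31), ETS1 (-0.76) and ESR1 (-1.92), the last dim. With only probes well above background in both channels on both arrays, 2 of 23 were lower, beside 4.92% of all genes. The lowest change was then -0.68, so the -0.76 of ETS1 was not kept. The median of the 24 was -0.11, beside 0.02 over all 13334 genes.

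Of 30 Wnt pathway targets, 6 were lower (20.0%) and 1 was higher (3.33%), and the median change was -0.15. AXIN2, a destruction complex scaffold and common read-out of the pathway, had levels of -0.62 in control medium, 0.46 after si-control with Wnt3A, 0.19 after si-MLLT10, 0.24 after si-DOT1L, -0.34 after si-BRG1 and -0.16 after si-p300. The p300 value thus lay between the control medium and si-control Wnt3A values, 0.45 above the former, with a change of -0.63 ± 0.29. Its sample signal changed by -0.30 and its reference signal by 0.33, each within 1.5-fold. NKD1, a feedback inhibitor of Wnt signaling, had a change of -0.14 ± 0.31 and did not pass the threshold.

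The other Wnt targets that were lower were the AP-1 subunit FOSL1 (-1.07 ± 0.43), the hyaluronan receptor CD44 (-0.78), the Wnt antagonists APCDD1 (-0.72) and NOTUM (-0.68) and the receptor FZD7 (-0.63). JUN was higher (0.81 ± 0.12), but its level was 1.83 after si-p300, 2.15 after si-MLLT10, 1.75 after si-DOT1L and 1.02 after si-control, so that against the mean of the MLLT10 and DOT1L arrays the change was -0.12. The BRG1 array gave changes of the opposite sign for AXIN2 (0.18), FOSL1 (0.33) and CD44 (0.60). Of 28 receptors, destruction complex and nuclear factors of the pathway, the β-catenin cofactor BCL9L (-1.07 ± 0.34) and the corepressor TLE2 (-0.67 ± 0.32) were lower and none was higher. The lower share of this list, 7.14%, was near the 7.23% of all genes. CTNNB1, which encodes β-catenin, had changes of -0.45 ± 0.09 (10 spots) and -0.39 ± 0.29, both within 1.5-fold.

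TGF-β and BMP targets had the lowest median among the lists with more than 6 measured genes, -0.44 over 21 genes, with 6 lower and none higher. INHBA, the activin subunit, had levels of -2.37 in control medium, -2.04 after si-control, -2.23 after si-MLLT10, -1.52 after si-DOT1L and -1.25 after si-BRG1, and of -3.52 after si-p300. It was lowest on the p300 array, with a change of -1.49 ± 0.48. ID1, an inhibitor of helix-loop-helix factors and a BMP target, had levels of -3.47 to -3.88 on the other 5 arrays and -4.84 on the p300 array (-1.34 ± 0.63). The ligand BMP2 had levels of -0.08 to -1.20 and -2.12 (-1.0 ± 0.37), with a sample signal change of -0.52.

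Also lower were ID3 (-0.62) and the matricellular protein CCN2 (-0.67 ± 0.76), and the feedback inhibitor SMAD7 had a change of -0.52 ± 0.30, within the threshold. Against the mean of the MLLT10 and DOT1L arrays 4 of the 21 were lower and none higher, with a median of -0.42, and against the BRG1 array 12 were lower and none higher, with a median of -0.76. Over all genes 3.92% were lower against the former and 8.26% against the latter, and 1.75% and 10.0% were higher. The list's median was thus negative against the si-control array, the BRG1 array and the mean of the MLLT10 and DOT1L arrays. The same p300 array enters each of these comparisons. In Ls174T cells the median of the 21 genes was -0.03, with 1 lower, 3 higher and none lower in both lines. Over all 12945 genes compared in both lines 575 were lower and 1060 higher in Ls174T cells.

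Of 23 extracellular matrix and adhesion genes, 8 were lower and none was higher, with a median of -0.40. The intermediate filament gene VIM changed by -1.05 ± 0.32, its level being -1.38 on the p300 array and -0.33 to -0.81 on the others. THBS1, a matricellular glycoprotein (-1.03 ± 0.39 at the brighter probe), COL6A2, a collagen VI chain (-1.05 ± 0.41), the protease inhibitor TIMP1 (-0.78 ± 0.35), SPARC (-0.65) and COL1A2 (-0.62) were lower, as were the dim COL3A1 (-0.59) and THBS2 (-1.18). Fibronectin (FN1) had changes of -0.25 ± 0.24 and -0.09 ± 0.53. The direction depended on the comparison array. Against the mean of the MLLT10 and DOT1L arrays 4 were lower and none higher (median -0.34). Against the BRG1 array 1 was lower and 6 were higher (median 0.31). In Ls174T cells none of the 23 was lower after p300 knockdown and 8 were higher (median 0.36).

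Of 22 cAMP/CREB and immediate early genes, 5 were lower and 1 was higher, JUN, with a median of -0.33. EGR1, an immediate early zinc finger factor, had levels of -4.63 in control medium, -1.89 after si-control, -3.51 after si-MLLT10, -2.17 after si-DOT1L, -3.97 after si-BRG1 and -3.13 after si-p300. The p300 value lay inside the range of the other 4, and the change was -1.25 ± 0.45 against si-control but 0.84 against BRG1. DUSP6, an ERK phosphatase (-1.28 ± 0.76), the nuclear receptor NR4A1 (-0.64), FOSB (-0.60) and the phosphodiesterase PDE4D (-0.59) were lower, and FOS had a change of -0.28 ± 0.47. Against the mean of the MLLT10 and DOT1L arrays 1 of the 22 was lower.

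**Figure D4:**
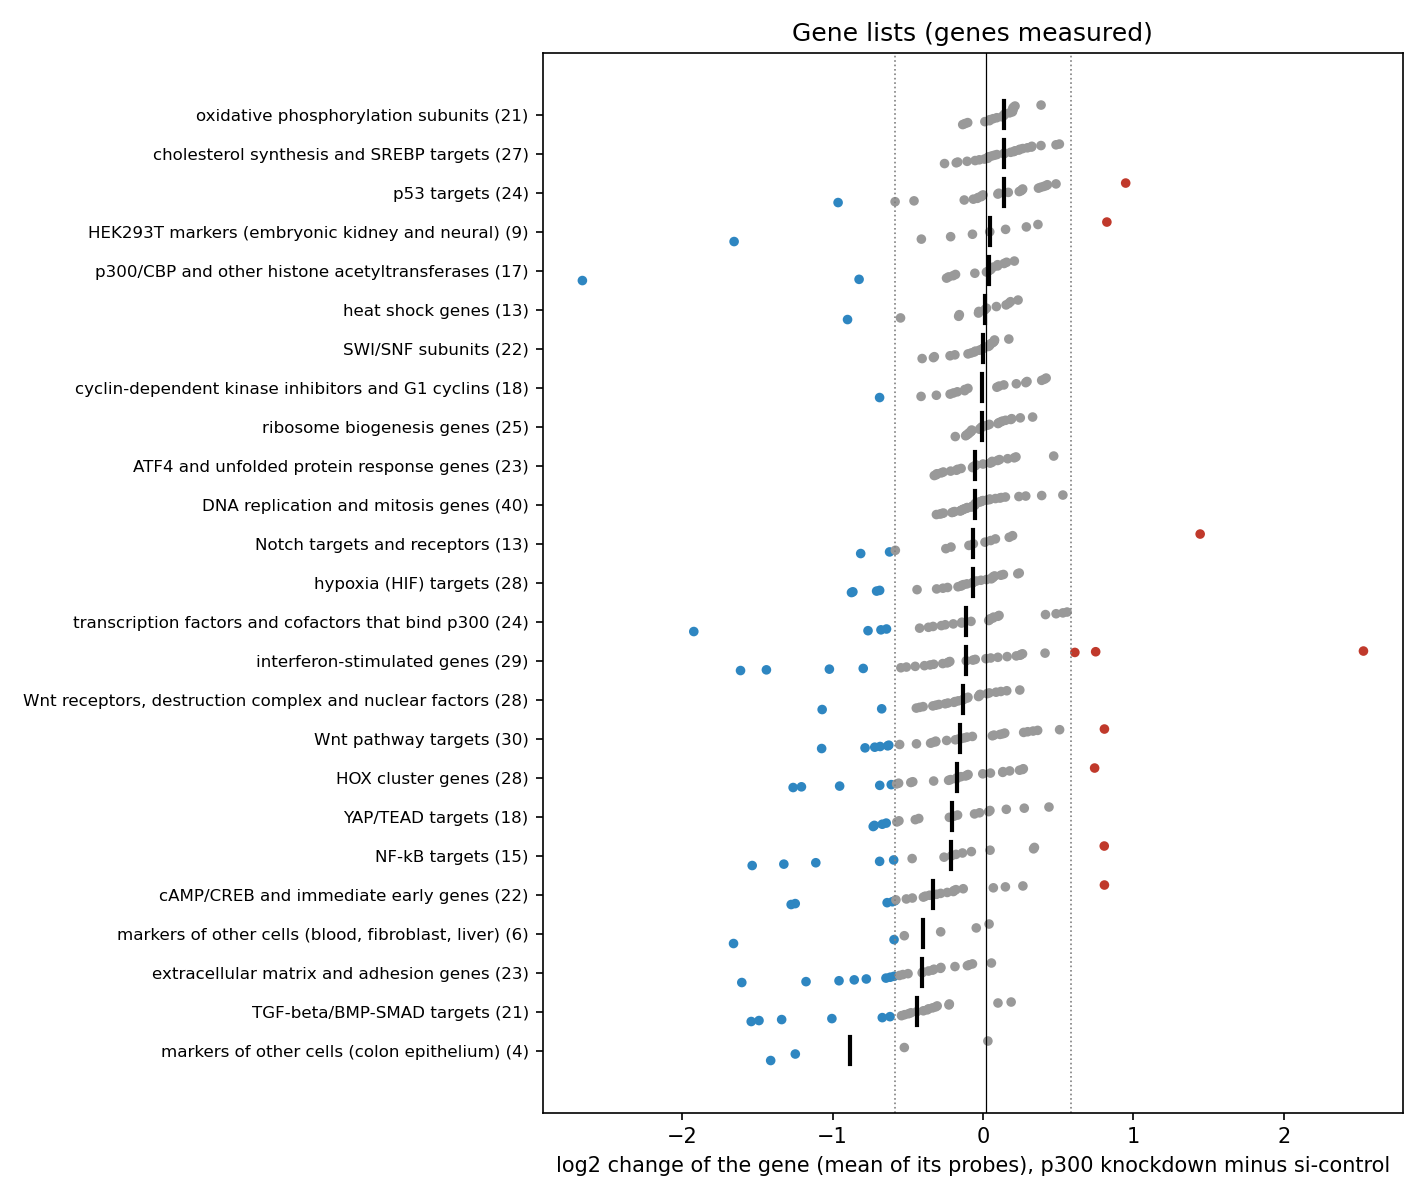
Change of each gene (mean of its probes, log2, p300 knockdown minus si-control) in the gene lists, with the number measured; black bars are medians, the solid line is the median of all genes (0.02) and dotted lines mark 1.5-fold. TGF-β/BMP targets (median -0.44) and matrix genes (-0.40) lie to the left of all genes, and genes of replication and ribosome biogenesis stay within the dotted lines.

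The marker lists of other cells, described above, had medians of -0.89 (colon) and -0.40 (blood, fibroblasts and liver). All other remaining lists had medians closer to that of all genes than the TGF-β/BMP, matrix and immediate early lists. Beside 7.23% of all genes, 14.3% of HIF, 13.8% of interferon-stimulated and 4.17% of p53 target genes were lower. Higher were 10.3% of the interferon-stimulated genes and 4.17% of the p53 targets, beside 3.35% of all genes. Of 15 NF-κB targets 5 were lower and 1 was higher, the chemokine CXCL2 among the lower at 1 probe (-0.96 ± 0.34), but none was past 1.5-fold against the mean of the MLLT10 and DOT1L arrays. With dim probes left out 2 of 12 were lower and none higher, and with normexp 1 of 15 was lower. Of 18 YAP/TEAD targets 4 were lower, among them the LIM protein AJUBA (-0.72 ± 0.35) and ASAP1 (-0.98 ± 0.31 at 1 of 3 probes), which at these probes were below all other HEK293T arrays. The sample signal of AJUBA changed by -0.36 and its reference signal by 0.36, each within 1.5-fold. Of 28 HIF targets 4 were lower, including ADM, a vasodilator peptide (-0.71 ± 0.15, 10 spots), and DDIT4 (-0.69 ± 0.29). Of 28 HOX genes 5 were lower and 1 was higher. HOXB5 was lower in the sample signal (-1.46), HOXD11 (-1.21) mostly in the reference signal (0.99), and the higher HOXA7 (0.74) also in the reference signal (-0.73).

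Of 29 interferon-stimulated genes 4 were lower and 3 higher, with OAS3, an RNA sensor, higher at 1 probe (0.95 ± 0.46) and IFIH1, which encodes the sensor MDA5, at 0.75 ± 0.36, while MX2 changed by -1.03 ± 0.43 and IFIT1 by 0.22 ± 0.32. Of 13 Notch genes JAG1 (-0.81 ± 0.61) and DLL1 (-0.62 ± 0.39), both ligands, were lower and HES5, a target, was higher (1.44 ± 0.69), while HES1 stayed within the threshold at 3 probes (-0.22, -0.16 and 0.10). Of 24 p53 targets GADD45A was lower and TP53I3 higher (0.95 ± 0.33), and CDKN1A, the p21 gene, had changes of 0.27 ± 0.10 (9 spots) and 0.57 ± 0.34. No gene of the lists for DNA replication and mitosis (40 genes), ribosome biogenesis (25), cholesterol synthesis (27), the unfolded protein response (23), oxidative phosphorylation (21) or SWI/SNF subunits (22) was past 1.5-fold as the mean of its probes.

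The level of the changed features was next set beside that in control medium, as the si-control Wnt3A array enters both differences. Of 2265 lower features well-measured on the 3 arrays, 1093 (48.3%) were within 1.5-fold of the control medium array and 1139 were below it by more, with a median difference of -0.588. Of 1076 higher features 602 (55.9%) were within 1.5-fold of control medium and 463 were above it by more. AXIN2 and EGR1 remained above control medium after p300 depletion, by 0.45 and 1.49, whereas INHBA and ID1 differed from it by -1.16 and -0.96.

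In Ls174T cells the p300 knockdown has its own si-control array and shares no array with the HEK293T comparison, although the Ls174T si-control array lay on the same slide as the HEK293T p300 array. At the first EP300 probe the change was -0.60 in Ls174T cells, beside -2.35 in HEK293T cells. On the Ls174T arrays this probe was not well above background throughout. How far the depletion differed between the lines was not tested. Of 26729 features well-measured in both lines, 2231 were lower in HEK293T (8.35%) and 1307 in Ls174T cells (4.89%), and 237 were lower in both, which is 10.6% of the HEK293T and 18.1% of the Ls174T list. Higher were 889 (3.33%) and 2428 (9.08%), with 143 in both, or 16.1% and 5.89%. The HEK293T features lower by 1.5-fold were higher in Ls174T cells in 681 cases (30.5%), and in 194 of 1131 (17.2%) among features well above background on all 4 arrays. Of these 1131, 115 were lower in both lines. Of 631 higher features well above background on all 4 arrays, 59 were higher and 89 (14.1%) lower in Ls174T cells. The Ls174T shares over all features well above background on all 4 arrays are not given here. Across features the changes had a correlation of -0.182, and of -0.135 over the 23488 that were well above background on all 4 arrays; features are not independent replicates, and the shared slide enters the comparisons with opposite signs.

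For the probes that were lower on the p300 array than on the other 5 HEK293T arrays, more were lower than higher in Ls174T cells. Of 89 such probes compared in Ls174T cells, 14 (15.7%) were lower there too, beside 3.55% of 16245 probes compared in the same way. The opposite way, 7 (7.87%) were higher, beside 4.75% of the 16245, so this share was also above that of all probes. The median Ls174T change of the 89 was -0.225 beside 0.0201 over all. The 14 included SARNP (-0.95 and -1.02 in Ls174T), HMGN4 (-0.67 and -0.76), GADD45A (-0.96), the small GTPase RHOU (-1.07), UNC5B (-0.70), CCND2 at that probe (-0.64) and the reductase AKR1B10 (-2.03), whose HEK293T change had a large error (-1.03 ± 0.74). Of 22 probes that were higher, 7 (31.8%) were higher in Ls174T, beside 4.75% of all, among them SP110 (1.46), SAMD9 (2.43) and OAS3 (0.81), which are interferon-induced, and ACTA2 (0.65). The opposite way, 3 of the 22 (13.6%) were lower, beside 3.55% of all. The interferon-stimulated list as a whole differed between the lines. Of 28 of its genes compared in both, 12 were higher and none lower in Ls174T cells (median 0.53). In HEK293T cells 3 of the 28 were higher and 4 lower (median -0.09), and 2 were higher in both lines. Over all 12945 genes 1060 were higher and 575 lower in Ls174T cells, and 361 and 941 in HEK293T cells. CMTM6, EFNA1 and EIF4EBP2 had Ls174T changes between -0.45 and 0.06, within the threshold.

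**Figure D5:**
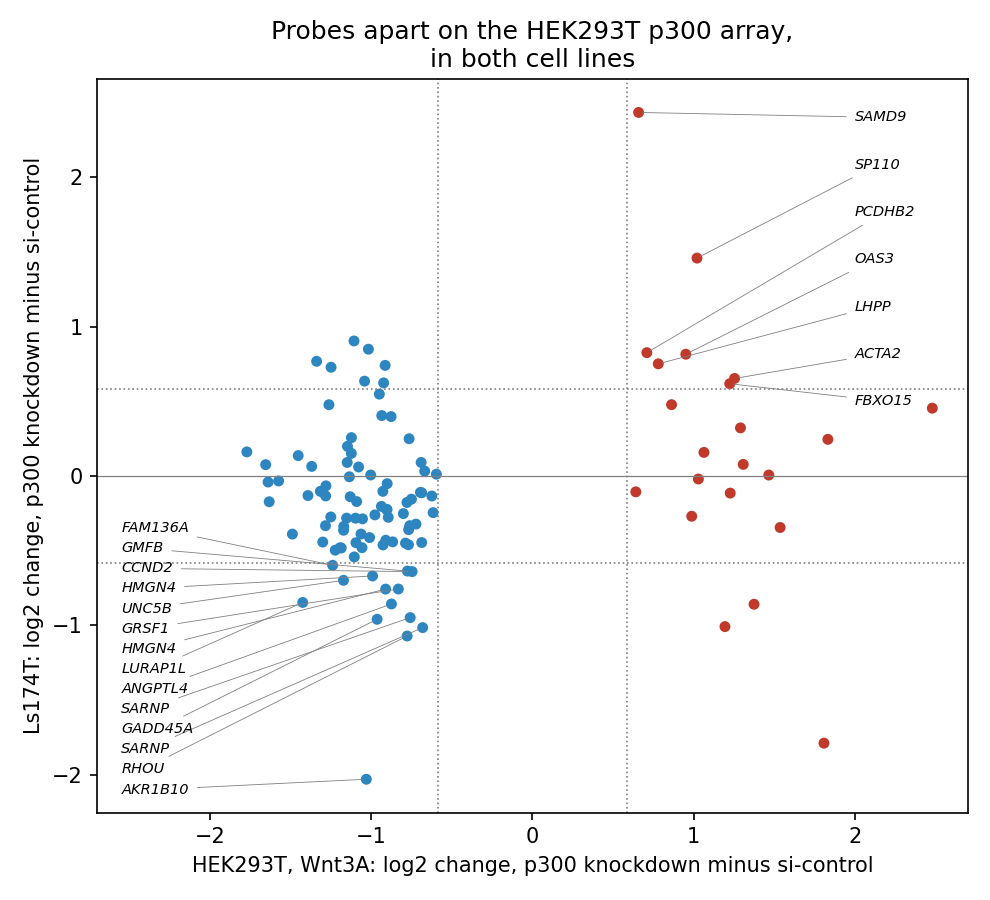
Change after p300 knockdown in Ls174T (vertical) against HEK293T cells (horizontal), both log2, for probes that were apart on the HEK293T p300 array (below the other 5 HEK293T arrays in blue, above in red); dotted lines mark 1.5-fold and labels give genes past it the same way in both lines. Of 89 blue probes 14 were also lower in Ls174T, and of 22 red probes 7 were also higher.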

How the data were processed

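RNA was labeled with Cy3 and the reference with Cy5, and the authors read the arrays with the Agilent Feature Extraction program (version 10.5.1.1 in the file headers). The intensities that the authors deposited are median and background signals and processed signals, background-subtracted and dye-normalized by the program. The log10 ratios that the authors deposited are those of processed Cy5 over Cy3, with the program's error. The ratios were turned to sample over reference and converted to log2 (Python 3.11.15, numpy 2.4.6, pandas 2.3.3). The filter on signal (over 2-fold the local background in either channel, here on both arrays) and the 1.5-fold threshold are the study's, and features marked as outliers were also left out. "Well above background" is the program's own mark, and "dim" means that it is missing in the sample channel. The deposited table of values held the same log ratios as the array files (largest difference 0).

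Symbols were given to 27612 of 29084 features with a RefSeq accession (94.9%) through a RefSeq gene table, and gene lists were written from general knowledge. Spots of a probe were averaged. A member of the TGF-β/BMP list is counted but not reported by name here. The members and lists were chosen with earlier results of these data known. Genes named are EP300 and CREBBP, the 12 largest changes in each direction well above background, the 5 largest bounds in each direction, list members past the threshold and a few well-known members per list, and genes apart on the p300 array, which were chosen after their values were seen. A bound sets the Cy3 signal of the brighter array against the higher of the dim probe's own signal and the lowest signal well above background on the other array, after loess and Aquantile (limma 3.58.1, R 4.3.3), and is open to dye bias. The genes with a bound were ranked by it, and the lowest of it, the ratio and the sample signal fold is given. The 1.5-fold call was tested on simulated data, a copy of the si-control Wnt3A array with large known changes and noise added. The other steps and differences between slides were not tested in this way. Precision is limited by 1 array per condition, and no test was made. The alternatives were normexp background correction (offset 50, on median signals, as the files hold no mean signals) with loess, the deposited table of values, the Cy3 channel alone scaled to the 75th percentile, other filters, outliers kept, centering on the median, a 2-fold threshold and other control arrays. Normexp with background outliers replaced and the comparison with all 5 other HEK293T arrays were added after seeing the data.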

Additional observations from a re-analysis of the deposited data

Results flagged for a closer look

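The change after p300 knockdown passed 1.5-fold in opposite directions in HEK293T and Ls174T cells at 15 genes named by the rule, each at 1 probe well above background in both lines. With 1 array per condition the difference between the lines was not tested, and the Ls174T si-control array lay on the slide of the HEK293T p300 array. The change of EP300 itself at its first probe was -2.35 in HEK293T and -0.60 in Ls174T cells.

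Lower in HEK293T and higher in Ls174T cells were C1QTNF5 (-2.95 in HEK293T and 2.29 in Ls174T), ACTL8 (-2.81 and 0.85), the pyruvate dehydrogenase kinase PDK4 (-1.74 and 1.53), GABRE (-1.66 and 0.67), ID1 (-1.34 and 0.77), EGR1 (-1.25 and 0.84), COL6A2 (-1.05 and 0.68), IFI44 (-0.80 and 1.78), the cell cycle inhibitor CDKN2C (-0.69 and 1.14) and KAT2B (-0.60 and 0.84). Outside the rule NOTUM (-0.68 and 0.80) and a second MX2 probe (-1.01 ± 0.75 and 0.96) did the same. The first MX2 probe was lower in both lines (-1.03 and -0.83), so the MX2 probes disagree in Ls174T cells. The mean over both KAT2B probes was -0.23 in HEK293T cells, within 1.5-fold. Of these ID1 was below all other HEK293T arrays, and for C1QTNF5 and ACTL8 the si-control Wnt3A array stood above all others.

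Higher in HEK293T and lower in Ls174T cells were HES5 (1.44 and -1.58), UNC13A (2.32 and -1.37), KIF19 (1.81 and -1.79), FUT2 (2.52 and -1.40) and the mevalonate kinase MVK (0.65 and -0.60), and outside the rule FERMT1 (1.20 and -1.01). The mean over both MVK probes was 0.51 in HEK293T cells, within 1.5-fold. The reference signal of KIF19 and FUT2 changed by -1.96 and -1.56 in the HEK293T comparison, and that of MVK by -0.38.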

How the results depend on the processing

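Against 2293 lower and 1110 higher features, normexp with loess gave 925 and 285 (946 and 289 with background outliers replaced), both channels above background 852 and 513, no filter on signal 5967 and 3483, a 2-fold threshold 926 and 229, the mean of the MLLT10 and DOT1L arrays as control 1297 and 575, and the comparison with all 5 other HEK293T arrays 314 and 71. The Cy3 channel alone gave 5253 lower features, a sample signal well above background on both arrays 1461 lower, and the BRG1 array as control 2644 higher and 2888 lower. Lower features outnumbered higher ones under each of these settings, but by gene the BRG1 array gave more higher (1322) than lower (1091). With normexp 4 of 21 TGF-β/BMP, 4 of 23 matrix, 4 of 22 immediate early, 3 of 30 Wnt, 1 of 18 YAP/TEAD and no Notch targets were lower, beside 2.88% of all genes. The cause of these shifts was not tested, apart from the stricter filters and threshold, which keep fewer features by construction.

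Some named genes changed sign. Against the BRG1 array these were C1QTNF5 (0.31), ACTL8 (0.92), PON3 (0.47), H1-9P (0.52), SERPINB2 (0.41), GABRE (0.89), EGR1 (0.84), HOXD11 (0.24), FOSL1 (0.33), COL6A2 (0.30), MX2 (0.50), CRYAB (0.22), IFI44 (2.04), CD44 (0.60), TIMP1 (1.02), DDIT4 (0.065), AXIN2 (0.18), LSS (-0.19), HOXA7 (-0.83), NEFL (-0.32) and CHGB (-0.48). Against the mean of the MLLT10 and DOT1L arrays they were C1QTNF5 (0.14), MX2 (0.42), KREMEN1 (-0.16), JUN (-0.12) and GLTPD2 (-0.042). Normexp turned DEFB1 (0.23), CCL15 (0.48) and CASP1 (-0.095), and with background outliers replaced DEFB1 (0.22) and CCL15 (0.47). The Cy3 channel alone turned BRSK2 (-0.15) and KIF19 (-0.15). The BRG1 and other knockdown arrays carry their own effects, so these signs compare knockdowns. No other named gene past 1.5-fold changed sign, and with the deposited table, the median as center or outliers kept, none did. Changes are least certain for dim features. No paired analysis was possible because each condition has 1 array.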
